A study of Homo sapiens with 8 samples.

Results

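DNA methyltransferases write 5-methylcytosine at CpG dinucleotides, and their maintenance cofactors keep the pattern through DNA replication. The genes examined were DNMT1, DNMT3A, DNMT3B, DNMT3L, UHRF1, UHRF2, and HELLS, taken by name as the known methyltransferase machinery and not by any measured value. Their probes were found through the RefSeq transcript that the array annotation gives for each probe, and these 7 genes had 12 of the 34127 non-control probes of the array, of which 25422 carried the symbol of one of 19483 genes. DNMT1, DNMT3B, and DNMT3L had 1 probe each, UHRF1, UHRF2, and HELLS had 2 each, and DNMT3A had 3. For a gene with several probes, the probe with the highest mean signal over the 8 arrays is called its leading probe.

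The study placed the catalytic domain of TET1, an enzyme that oxidizes 5-methylcytosine and so opens a route to its removal, in HEK293T cells and compared gene expression on arrays labelled with Cy3. HEK293T is a cell line derived from human embryonic kidney. The 4 groups were stable HEK293T transfectants carrying empty vector, TET1-CDwt (the wild-type catalytic domain alone), MBD-TET1-CDwt (that domain joined to the part of MBD2 that binds methylated CpG), or MBD-TET1-CDmut (the MBD fusion with a catalytically inactive TET1 domain). Each group had 2 independently picked clones with 1 array each, namely clones #1 and #2 for empty vector, #2 and #5 for TET1-CDwt, #3 and #10 for MBD-TET1-CDwt, and #9 and #10 for MBD-TET1-CDmut. All lines went through plasmid transfection with the pcDNA6/Myc-His backbone and blasticidin selection, including empty vector, the TET1 constructs carried a FLAG tag, and every array measured a line grown from 1 colony, so a difference between clones of a construct includes what sets single colonies apart. The arrays of empty vector and TET1-CDwt were on slide 1 and those of both MBD fusions on the other slide, so a comparison of an MBD fusion with empty vector or TET1-CDwt is also one between slides, and the 2 cannot be told apart, while TET1-CDwt against empty vector and MBD-TET1-CDwt against MBD-TET1-CDmut lie within a slide.

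In replicating cells DNMT1 copies methylation from the parental to the new DNA strand. UHRF1 recognizes CpG sites methylated on only the parental strand and brings DNMT1 to them, UHRF2 is its close relative, and HELLS, also called LSH, is a chromatin remodeler needed for methylation of repeats. DNMT3A and DNMT3B set new methylation, and DNMT3L, which has no catalytic activity of its own, stimulates them in germ cells and early embryos. Loss of 5-methylcytosine in dividing cells depends on what TET enzymes remove and on what these genes put back, which is why their expression in TET1-CD lines is of interest.

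The upstream sequences of the genes are shown because CpG dinucleotides are the sites on which both the methyltransferases and the TET1 domain act. RefSeq gave 13 windows of 250 bases before a transcript start for 6 of the genes on GRCh38.p14, with DNMT3L not among them. The genes lie at chr19:10133346-10194953 (DNMT1), chr19:4903080-4962154 (UHRF1), chr9:6413199-6507054 (UHRF2), chr10:94545788-94613905 (HELLS), chr2:25227874-25342590 (DNMT3A), chr20:32762385-32809356 (DNMT3B), and chr21:44246339-44261897 (DNMT3L). The windows shown are those of DNMT1 (chr19:10194954-10195203, minus strand), UHRF1 (the first of its 3 windows, chr19:4909251-4909500, plus strand, inside the span of the gene), HELLS (chr10:94545538-94545787, plus strand), and DNMT3B (chr20:32779602-32779851, plus strand, inside the span of the gene), each written 5′ to 3′ with every CpG in capitals.
DNMT1: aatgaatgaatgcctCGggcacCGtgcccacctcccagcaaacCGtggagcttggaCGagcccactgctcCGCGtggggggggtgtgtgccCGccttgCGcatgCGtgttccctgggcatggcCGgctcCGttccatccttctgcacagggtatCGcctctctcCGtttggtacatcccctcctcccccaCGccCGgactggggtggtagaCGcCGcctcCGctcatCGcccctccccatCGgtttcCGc
UHRF1: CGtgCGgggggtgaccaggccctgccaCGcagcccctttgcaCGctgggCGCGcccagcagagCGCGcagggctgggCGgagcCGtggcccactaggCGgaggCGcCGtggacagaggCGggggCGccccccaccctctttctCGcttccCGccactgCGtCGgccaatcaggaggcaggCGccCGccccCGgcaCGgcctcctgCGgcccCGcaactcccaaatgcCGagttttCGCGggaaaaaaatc
HELLS: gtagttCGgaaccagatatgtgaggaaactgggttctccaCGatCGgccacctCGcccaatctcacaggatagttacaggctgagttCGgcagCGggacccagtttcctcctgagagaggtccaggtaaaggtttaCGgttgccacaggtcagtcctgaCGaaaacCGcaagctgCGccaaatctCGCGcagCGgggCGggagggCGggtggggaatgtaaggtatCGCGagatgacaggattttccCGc
DNMT3B: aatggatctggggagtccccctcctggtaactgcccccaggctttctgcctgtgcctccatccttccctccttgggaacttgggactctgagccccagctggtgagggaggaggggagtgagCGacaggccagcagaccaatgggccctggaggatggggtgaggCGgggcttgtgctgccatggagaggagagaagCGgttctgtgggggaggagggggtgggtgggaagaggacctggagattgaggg
These windows held 21 CpG dinucleotides for DNMT1, 28 for UHRF1, 18 for HELLS, and 3 for DNMT3B, against a median of 11 over 35116 windows of the same length. The UHRF2 window held 23, the other UHRF1 windows 32 and 41, and the 6 DNMT3A windows between 12 and 33. Of all windows, 77.1% had at least as many CpG as that of DNMT3B, and 30.2% at least as many as that of DNMT1. The DNMT3B window was the only 1 given for that gene. As it lies inside the gene, its count does not describe the sequence before chr20:32762385, where the gene span begins. The 3 UHRF1 windows also lie inside their gene, so their counts do not describe the sequence before chr19:4903080. Some DNMT3A windows, such as chr2:25252132-25252381, lie inside that gene as well. A 7-base core of the E2F motif, GCGGGAA or its reverse complement TTCCCGC, was present in 5.52% of all windows (1937). Among the 13 windows it was found in the printed UHRF1 window, where copies began 104 and 14 bases before that transcript start, and in the HELLS window, where it formed the last 7 bases. The arrays measured RNA and not methylation, so nothing is known here of the methylation of these windows.

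Levels are given as normalized log2 intensity, which is the log2 of the scanner's background-corrected signal minus the 75th percentile of that value over the probes of the array, so that 0 is the level of that percentile. A level is compared only between arrays of the same probe, since probes differ in how strongly they bind. The 75th percentile of intensity ran from 328 to 527 across arrays, and 63.2% to 68.2% of probes were well above background, with no saturated spot. Of the HEK293T markers listed, 9 of 9 were well above background on all 8 arrays, among them LHX1, NEFL, and KRT18, while the counts on all 8 arrays were 3 of 4 for blood cells, 1 of 4 for endothelial cells, and 1 of 5 for fibroblasts, with CD3E, PECAM1, KDR, COL1A2, COL3A1, and DCN on none. B2M, a control gene of the study, stayed between 2.95 and 3.13, and the leading probe of ACTB, the other control, lay between 6.99 and 7.31 except in MBD-TET1-CDwt #3, where it was 7.97. The probes of TET1 and MBD2 do not check the labels, because it is not known whether they match the transferred domains. The leading TET1 probe lay between 2.61 and 2.94 on all 8 arrays. The other TET1 probe lay between -1.55 and -0.70, lowest in both MBD-TET1-CDwt clones and highest in both of MBD-TET1-CDmut, with a difference between them of -0.69 (interval -1.13 to -0.25, limma adjusted p = 0.553). In RNA from whole cultures, fewer cells expressing a gene and less RNA per cell cannot be told apart.

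DNMT1, UHRF1, UHRF2, HELLS, DNMT3A, and DNMT3B were well above background on all 8 arrays, and DNMT3L was on none. No construct moved any of them past the test. limma, fitted to all 8 arrays over 22565 to 22567 probes, called 0 of the 11 tested probes of these 6 genes at a Benjamini-Hochberg adjusted p under 0.05 in each of 5 comparisons and in the F test across the 4 constructs. At an unadjusted p under 0.05 it found 1 probe in 1 comparison, the leading probe of UHRF2 in MBD-TET1-CDwt against MBD-TET1-CDmut, and 0 elsewhere. Nothing in the labels states that the RNA came from more than a single culture per clone, so these p-values measure the spread between clones and arrays.

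DNMT1, the maintenance methyltransferase, was measured at 2.29 and 2.02 in the empty vector clones #1 and #2, at 1.93 and 2.20 in TET1-CDwt (#2, #5), at 2.45 and 2.01 in MBD-TET1-CDwt (#3, #10), and at 2.35 and 1.99 in MBD-TET1-CDmut #9 and #10. The values of the 4 constructs overlapped throughout, and the whole range over 8 arrays was 0.51. The construct means ran in the order 2.07 ± 0.19 for TET1-CDwt, 2.16 ± 0.19 for empty vector, 2.17 ± 0.26 for MBD-TET1-CDmut, and last MBD-TET1-CDwt at 2.23 ± 0.31 (SD, n = 2 each), and no neighbours in it differed by more than the spread between clones. MBD-TET1-CDwt was 1.05-fold of empty vector, with a 95% interval of 0.708 to 1.56 (limma adjusted p = 0.976), and 1.04-fold of MBD-TET1-CDmut, with an interval of 0.701 to 1.54 (limma adjusted p = 0.973). For TET1-CDwt the ratio to empty vector was 0.938, with an interval of 0.633 to 1.39 (limma adjusted p = 1.00). Changes of 2-fold in DNMT1 RNA lay outside these intervals, but not under every background correction. With normexp, another background correction, the ratio of MBD-TET1-CDwt to empty vector was 1.67-fold with an interval of 0.631 to 4.42 (limma adjusted p = 0.471), so a 2-fold change lay within it. The normexp fit, however, gave a background mean of -1321 for empty vector #2, and the median difference of all probes was -0.38 under it. With a plain subtraction of local background the DNMT1 difference was -0.014 (limma adjusted p = 0.988).

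UHRF1, which brings DNMT1 to newly replicated DNA, had 2.22 and 2.10 in empty vector, 2.24 in both TET1-CDwt clones, 2.47 and 2.33 in MBD-TET1-CDwt #3 and #10, and 2.40 and 2.22 in MBD-TET1-CDmut #9 and #10 on its leading probe. Both MBD-TET1-CDwt arrays lay above the 4 arrays of slide 1 and overlapped those of MBD-TET1-CDmut on their own slide. The means ran in the order empty vector (2.16 ± 0.08), TET1-CDwt (2.24 ± 0.002), MBD-TET1-CDmut (2.31 ± 0.12), and MBD-TET1-CDwt (2.40 ± 0.10; SD, n = 2 each), with no 2 neighbours apart by more than the clones of MBD-TET1-CDmut (0.17). The difference of MBD-TET1-CDwt from empty vector was 0.24 (SE 0.17, 95% interval -0.16 to 0.64, limma adjusted p = 0.880) and that from MBD-TET1-CDmut 0.09 (SE 0.17, interval -0.31 to 0.49, limma adjusted p = 0.939). Its other probe, which gave between -0.91 and -0.22, had a difference of 0.40 from MBD-TET1-CDmut (SE 0.20, interval -0.08 to 0.87, limma adjusted p = 0.764), so both probes had MBD-TET1-CDwt above MBD-TET1-CDmut, neither of them past the test. With normexp the leading probe differed by 0.83 from empty vector (interval -0.40 to 2.07, limma adjusted p = 0.469) and the other by 0.01. The same limit of the normexp fit on empty vector #2 holds here, and with local background subtracted the leading probe differed by 0.14 (limma adjusted p = 0.850).

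UHRF2, the relative of UHRF1, showed the only unadjusted p under 0.05. On its leading probe MBD-TET1-CDwt #3 and #10 both read -0.50, the lowest of the 8 arrays, and MBD-TET1-CDmut #9 and #10 read 0.04 and 0.02, the highest. Empty vector #1 and #2 were at -0.48 and 0.00, and TET1-CDwt #2 and #5 at -0.41 and -0.10, so each of these 2 constructs alone spanned much of the distance between the MBD fusions. Within the slide, MBD-TET1-CDwt was 0.695-fold of MBD-TET1-CDmut, a difference of -0.53 (SE 0.22, 95% interval -1.04 to -0.01, limma adjusted p = 0.725). In that comparison 6.85% of all probes had an unadjusted p under 0.05, against 1 of the 11 probes here. The second UHRF2 probe, between -2.50 and -2.02, differed by -0.25 between the same constructs (SE 0.21, interval -0.76 to 0.25, limma adjusted p = 0.872). Neither UHRF2 probe separated MBD-TET1-CDwt from empty vector, with differences of -0.26 (interval -0.78 to 0.26) and 0.01 (interval -0.49 to 0.51). That of the leading probe was -0.50 without empty vector #1 and -0.02 without empty vector #2.

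HELLS, the chromatin remodeler, was at 1.23 and 1.65 in empty vector #1 and #2, 1.26 and 1.46 in TET1-CDwt #2 and #5, and 1.64 and 1.30 in MBD-TET1-CDmut #9 and #10. In MBD-TET1-CDwt #3 it was 1.46, within the range of the other constructs, and in #10 it was 0.68, which is 0.54 below the next lowest array. The second probe ranged from 0.06 to 0.79 on 7 arrays and read -0.40 in MBD-TET1-CDwt #10, so both probes had this clone lowest. The group mean of MBD-TET1-CDwt differed from empty vector by -0.37 (SE 0.30, interval -1.09 to 0.35, limma adjusted p = 0.901) and from MBD-TET1-CDmut by -0.40 (SE 0.30, interval -1.11 to 0.32, limma adjusted p = 0.860). These differences rest on that clone. Without MBD-TET1-CDwt #10 they were 0.02 and -0.01, and without #3 they were -0.76 and -0.78 (limma adjusted p = 0.524 and 0.506), where the lone clone is taken to vary like those of the other groups.

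DNMT3A, a de novo methyltransferase, gave the opposite picture in the same clone. Its leading probe read -1.04 and -1.02 in empty vector, -1.08 and -1.21 in TET1-CDwt, and -1.10 and -1.23 in MBD-TET1-CDmut. It was -1.23 in MBD-TET1-CDwt #3, but -0.42 in MBD-TET1-CDwt #10. Probe A_23_P154500, annotated to the same transcript, read -1.48 and -1.71 in empty vector, -1.50 and -1.47 in TET1-CDwt, and -1.26 and -1.54 in MBD-TET1-CDmut. It was -1.34 in MBD-TET1-CDwt #3, but -0.41 in #10. Clone #10 thus lay 0.59 and 0.85 above the next highest array on these probes. The dimmest DNMT3A probe, annotated to another transcript, ran from -4.87 to -4.32 with MBD-TET1-CDwt #10 inside that range at -4.45. The largest difference of any of the 11 probes was that of A_23_P154500 between MBD-TET1-CDwt and empty vector, at 0.72 or 1.65-fold (SE 0.31, interval -0.01 to 1.46, limma adjusted p = 0.769), while the leading probe differed by 0.20 (SE 0.27, interval -0.44 to 0.84, limma adjusted p = 0.930). Against MBD-TET1-CDmut the differences of these probes were 0.53 (SE 0.31, interval -0.21 to 1.26) and 0.34 (SE 0.27, interval -0.30 to 0.98). Without MBD-TET1-CDwt #3 the difference of A_23_P154500 from empty vector was 1.19, and without #10 it was 0.26, with no call made in either case. In these fits the lone clone is taken to vary like those of the other groups. With normexp and all clones, the difference of A_23_P154500 between MBD-TET1-CDwt and empty vector turned to -0.14 (interval -1.325 to 1.051, limma adjusted p = 0.859). That of the leading probe turned to -0.26. The limit of the normexp fit on empty vector #2 holds here as well.

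DNMT3B, the other de novo enzyme, was at 1.22 and 0.50 in empty vector #1 and #2, 1.16 and 1.52 in TET1-CDwt #2 and #5, 1.54 and 1.22 in MBD-TET1-CDwt #3 and #10, and 0.73 and 1.12 in MBD-TET1-CDmut #9 and #10. Both constructs with an active TET1 domain had higher means, 1.34 ± 0.26 and 1.38 ± 0.23, than empty vector (0.86 ± 0.51) and MBD-TET1-CDmut (0.92 ± 0.27; SD, n = 2 each), but the clones of empty vector alone differed by 0.72. The difference of MBD-TET1-CDwt from MBD-TET1-CDmut was 0.46 (SE 0.30, interval -0.25 to 1.16, limma adjusted p = 0.820) and that of TET1-CDwt from empty vector 0.49 (SE 0.30, interval -0.22 to 1.19, limma adjusted p = 1.00). Both of these comparisons lie within a slide, both intervals include 0, and both reach past 2-fold on the upper side, so a 2-fold higher level of DNMT3B lies within them. For MBD-TET1-CDwt against empty vector the difference was 0.52 (interval -0.18 to 1.23, limma adjusted p = 0.847). It was 0.88 without empty vector #1 and 0.16 without empty vector #2.

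DNMT3L was not well above background on any array and so did not enter the test. In a fit without a filter on dim probes it was not called in any comparison (lowest limma adjusted p = 0.695). Its probe read between -8.13 and -7.64 on 7 arrays and -5.94 in empty vector #2, next to a lowest signal among probes well above background that ran from -6.01 to -5.51 across arrays, so no fold is given. TRDMT1, a relative of the DNMT family that methylates transfer RNA, is given beside them as a gene with another substrate. Its leading probe was highest in MBD-TET1-CDwt #3 (-1.62) and lowest in MBD-TET1-CDwt #10 (-2.49), with the other 6 arrays between -2.41 and -1.91.

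The comparisons taken one at a time give the limits of what could have been seen. For TET1-CDwt against empty vector, 0 of 11 probes were called, beside 0% of all 22565 probes, and at an unadjusted p under 0.05 the counts were 0 of 11 and 2.50% of all probes. The differences ran from -0.16 to 0.49 with a median of 0.01, beside -0.03 for all probes, and in 10 of 11 probes the 95% interval lay within 2-fold. For MBD-TET1-CDmut against empty vector, 0 of 11 were called, beside 0% of all probes (unadjusted 0 of 11, and 2.68% of all), the differences ran from -0.14 to 0.27 with a median of 0.07 beside -0.02 for all probes, and 11 of 11 intervals lay within 2-fold. This was the comparison with the smallest differences. For MBD-TET1-CDwt against empty vector, 0 of 11 were called beside 0.120% of all probes (unadjusted 0 of 11, and 6.59% of all), with differences from -0.37 to 0.72, a median of 0.20 beside -0.02 for all probes, and 7 of 11 intervals within 2-fold. For MBD-TET1-CDwt against MBD-TET1-CDmut, 0 of 11 were called beside 0.111% of all probes, (unadjusted 1 of 11, and 6.85% of all), with differences from -0.54 to 0.53, a median of 0.09 beside 0.01, and 6 of 11 intervals within 2-fold. For MBD-TET1-CDwt against TET1-CDwt, 0 of 11 were called beside 0.120% (unadjusted 0 of 11, and 4.74% of all), with differences from -0.29 to 0.61, a median of 0.06 beside 0.02, and 9 of 11 intervals within 2-fold. The F test called 0 of 11 beside 0.102% of all probes (unadjusted 0 of 11, and 4.44% of all). With so few probes called over the whole array, a count of 0 among 11 is close to that background. The 3 comparisons with empty vector share its arrays, and the 3 that hold MBD-TET1-CDwt share its clones, so their values are not independent.

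The clones of MBD-TET1-CDwt differed more from each other than those of the other constructs did over the array as a whole. The median size of the difference between clones over all tested probes was 0.37 for MBD-TET1-CDwt, 0.26 for TET1-CDwt, 0.22 for empty vector, and 0.17 for MBD-TET1-CDmut. Clone #10 minus clone #3 was 0.80 and 0.93 on the brighter DNMT3A probes, which 18.3% and 13.5% of all probes equalled or passed in size, and -0.78 and -0.81 on the HELLS probes, which 19.4% and 18.1% equalled or passed. DNMT1 differed by -0.43, DNMT3B by -0.32, and UHRF1 by -0.14 and -0.26, while the leading UHRF2 probe differed by -0.002. The TRDMT1 probes differed by -0.87, -1.30, and -0.45. Under quantile normalization, median scaling, both other background corrections, and with outlier spots kept, the DNMT3A difference stayed between 0.62 and 0.93 on those probes, that of HELLS between -0.88 and -0.62 on both, and that of DNMT1 between -0.51 and -0.34. The TRDMT1 differences shrank to -0.44, -0.23, and -0.08 with local background subtracted. In empty vector the largest such difference was that of DNMT3B, with #2 minus #1 at -0.72, and 10.65% of all probes differed by as much.

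Genes that work with these enzymes were examined through 4 lists. The list of maintenance partners holds genes such as PCNA, the sliding clamp of replication, and USP7. The list of silencing partners holds genes such as ATRX and NSD1, a methyltransferase of histone H3. The methyl donor cycle holds the enzymes that make and recycle S-adenosylmethionine, and the last list holds genes of S phase and proliferation, with PCNA in it as well. limma called 0 of 12, 0 of 22, 0 of 14, and 0 of 24 tested genes of these lists by their leading probes, and none of their other probes, in each of the 5 comparisons, beside 0% to 0.120% of all probes. At an unadjusted p under 0.05, which 2.50% to 6.85% of all probes had, it found 2 leading probes, that of NSD1 in TET1-CDwt against empty vector and that of AHCY in MBD-TET1-CDwt against empty vector. Among the other probes found were 2 of EHMT1 and 1 each of HDAC2 and MCM7. NSD1 read -0.59 and -0.17 in empty vector and -0.01 and 0.38 in TET1-CDwt, a difference of 0.57 (SE 0.23, limma adjusted p = 1.00). It also lay above empty vector in MBD-TET1-CDwt, by 0.43, and in MBD-TET1-CDmut, by 0.37 (SE 0.23 each), neither with an unadjusted p under 0.05. Empty vector #1 was the lowest of the 8 arrays for NSD1. AHCY, which clears S-adenosylhomocysteine, the product and inhibitor of methyl transfer, read 2.85 and 2.33 in empty vector and 1.82 and 2.08 in MBD-TET1-CDwt, a difference of -0.64 (SE 0.26, limma adjusted p = 0.755). Within the slide, AHCY in MBD-TET1-CDwt differed from MBD-TET1-CDmut by -0.46 (SE 0.26, limma adjusted p = 0.787). EHMT1, a methyltransferase of histone H3 lysine, had the lowest adjusted p of any list probe. Its probe A_33_P3286387 read -2.36 and -2.47 in empty vector, -2.97 and -2.70 in TET1-CDwt, -3.43 and -3.24 in MBD-TET1-CDwt, and -2.94 and -2.80 in MBD-TET1-CDmut. The clones of MBD-TET1-CDwt were the lowest of the 8 arrays and those of empty vector the highest. The difference between these constructs was -0.92 (SE 0.19, limma adjusted p = 0.340), and that of MBD-TET1-CDwt from MBD-TET1-CDmut was -0.47 (SE 0.19, limma adjusted p = 0.716). Its unadjusted p was under 0.05 in 4 of the 5 comparisons, the exception being TET1-CDwt against empty vector. Probe A_23_P20894 of EHMT1 differed from empty vector by -0.53 (SE 0.19, limma adjusted p = 0.708), while its leading probe had no unadjusted p under 0.05. The HDAC2 probe, well above background on only 6 arrays, differed by 1.31 in MBD-TET1-CDwt against empty vector, and the MCM7 probe by -0.70 against MBD-TET1-CDmut.

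For MBD-TET1-CDwt against empty vector, the median differences were -0.01 for the maintenance partners, 0.02 for the silencing partners, -0.09 for the methyl donor cycle, and 0.04 for S phase and proliferation (the S phase genes), beside -0.02 for all probes. Among the maintenance partners the largest differences in that comparison were those of CHAF1A, a subunit of the chromatin assembly factor, at 0.47 (SE 0.25, limma adjusted p = 0.820) and PCLAF, a PCNA-binding protein, at -0.36 (SE 0.31, limma adjusted p = 0.905). In the other lists ATRX differed by -0.28, SHMT2 by -0.58, PRIM1 by -0.52, and POLA1 by 0.40, none of them called. SHMT2, a mitochondrial enzyme of one-carbon metabolism, read 4.10 in MBD-TET1-CDwt #3 and between 4.97 and 5.32 on the other 7 arrays, so its difference rests on that clone.

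In each of the 4 lists the medians of the MBD-TET1-CDwt clones lay on opposite sides of the empty vector mean, with #10 the lower of the 2 except for the maintenance partners. Set against the empty vector mean, the median of the S phase genes was 0.20 in MBD-TET1-CDwt #3, with 18 of 24 genes above that mean, and -0.19 in #10, with 3 of 24 above it. On the other 6 arrays it lay between -0.05 and 0.08, with 6 (empty vector #2) to 18 (empty vector #1) of 24 genes above. Thus empty vector #1 had as many above as MBD-TET1-CDwt #3. For the silencing partners the medians were 0.17 with 19 of 22 genes above in #3 and -0.12 with 2 of 22 above in #10. The other 6 arrays had 7 to 15 of 22 above. Over all tested probes the median was 0.002 in #3 and -0.05 in #10, with 11318 of 22562 and 9828 of 22564 probes above. From clone to clone, 21 of 24 S phase genes were lower in #10 than in #3, with a median difference of -0.37, beside -0.03 for all tested probes, and under the other scalings and background corrections 19 to 21 were lower. Of the member probes, those of HELLS, DNMT1, DNMT3B, UHRF1, and the second of UHRF2 were lower in #10 than in #3, the leading one of UHRF2 was level, and the 3 of DNMT3A were higher. Apart from HELLS and the brighter DNMT3A probes and the level UHRF2 probe, 43.8% of all probes differed by at least as much as DNMT1, 47.7% as the second UHRF2 probe, 55.7% as DNMT3B, 63.9% and 78.8% as the UHRF1 probes, and 75.2% as the dimmest DNMT3A probe. The part of this shift in the values of the members was not tested.

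The genes whose levels followed each member most closely were sought among 13365 genes well above background on all 8 arrays, by Pearson's r over those 8 arrays. DNAL1 was among those for DNMT1 (r = 0.979, and 0.957 without the 2 arrays farthest from the median). For HELLS they were FBXW2 (r = 0.986) and COL7A1 (r = 0.960), for DNMT3A TMPRSS2 (r = 0.981) and TRABD2A (r = 0.980), for DNMT3B TFPT (r = 0.932) and NOP10 (r = 0.914), for UHRF1 PIGQ (r = 0.953) and SUFU (r = 0.925), and for UHRF2 BAZ2A (r = 0.954) and LCAT (r = 0.946). Without the 2 farthest arrays r was 0.801 for TMPRSS2 with DNMT3A and 0.823 for COL7A1 with HELLS. These are among the highest of 13365 values over 8 arrays that share slides and clones, and are given as a description only.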

How the data were processed

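Cy3-labelled cRNA of 8 HEK293T stable lines was hybridized to Agilent human 4x44K v2 arrays with 1 array per clone. The deposited intensity values of each array are the scanner signals after background subtraction by Agilent Feature Extraction (version 10.7.3.1 per the file headers, 9.5.1 in the submitters' processing notes). The array design was annotated on hg19, and symbols here were taken from the RefSeq table of GRCh38.p14 through the transcript accession of each probe. Control spots and outlier spots were left out, spots of a probe were averaged, log2 intensity was taken, and the 75th percentile over non-control probes was subtracted on each array. Probes well above background (in over 50% of their spots) on both arrays of at least 1 construct were tested.

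limma 3.58.1 (lmFit, contrasts, eBayes; 4 residual and 2.92 prior degrees of freedom) was fitted in R 4.3.3 to all 8 arrays with 4 group means, and p-values were adjusted by Benjamini-Hochberg over all probes tested. Calls were made at an adjusted p under 0.05, two-sided. Slide is nested with the constructs, so no slide term could be fitted. The script was tested on simulated data. The deposited series table holds the same intensity values, spot by spot, and 0 columns were left without a sample.

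All probes of the 7 genes are named, together with TET1, MBD2, ACTB, B2M, and TRDMT1. From each list the genes called, or otherwise the 2 with the largest difference between MBD-TET1-CDwt and empty vector among those well above background on all 8 arrays, are named. List probes at an unadjusted p under 0.05 were added after their values were seen. The members and lists were chosen with earlier results of these data known. The alternatives were quantile normalization, median scaling, normexp, other filters, outlier spots kept, an intensity trend in eBayes, fits of only the 2 groups compared, each clone left out, and the mean of a gene's probes. No mean signal column was in the scanner files used here, so normexp took the median signal. Its fit gave a background mean of -1321 for empty vector #2 and -240.2 for MBD-TET1-CDmut #10, so a plain subtraction of local background with an offset of 50 was added after seeing the data. Precision is limited by the 2 arrays per construct. Some results on single genes of the lists and on likeness are not reported here.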

Additional observations from a re-analysis of the deposited data

How the results depend on the processing

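No alternative called any probe of the 7 genes or of the lists in the comparisons it was run for, with 2 arrays per construct as the limit. The mean of a gene's probes (counted over the 6 genes after seeing the data, with 0 called) was not run for the lists, and a fit of only 2 groups has no F test. For 12 differences (the leading probes of 6 genes in MBD-TET1-CDwt against empty vector and against MBD-TET1-CDmut), 205 of 216 alternative values kept the sign and 11 turned, the lowest adjusted p being 0.342 (limma). Against empty vector, DNMT1 turned to -0.014 with local background subtracted (added after seeing the data), and to negative values without empty vector #2 or MBD-TET1-CDwt #3 (leaving out a clone gave -0.14 to 0.29). With normexp, HELLS turned to 0.18 and DNMT3A to -0.26, where the median of all probes moved from -0.02 to -0.38, and both turned without MBD-TET1-CDwt #10, where leaving out a clone gave -0.757 to 0.022 for HELLS and -0.20 to 0.60 for DNMT3A. Against MBD-TET1-CDmut, DNMT1 turned to -0.002 with quantile normalization, and turned without MBD-TET1-CDwt #3 or MBD-TET1-CDmut #10 (-0.16 to 0.27 over the clones left out), and DNMT3A turned without MBD-TET1-CDwt #10 (-0.062 to 0.74). Values that kept their sign also moved. With normexp DNMT1 and UHRF1 were 0.741 and 0.834 against empty vector, where they were 0.071 and 0.242 as reported, and leaving out a clone gave 0.16 to 0.88 for DNMT3B and -0.50 to -0.02 for UHRF2. The cause was not tested.

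The count of calls over all probes depended on the setting. In the order MBD-TET1-CDwt against empty vector, against MBD-TET1-CDmut, against TET1-CDwt, and the F test, it was 27, 25, 27, and 23 as reported, 0 in each with normexp and with only probes well above background on all 8 arrays, 3, 2, 5, and 1 with local background subtracted, and 17, 10, 10, and 8 with an intensity trend. Without a filter the last 3 were 11, 15, and 10. Fitting only the 2 groups gave 2, 0, and 0, and 1 for MBD-TET1-CDmut against empty vector, where it was 0 as reported. Leaving out a clone gave 8 to 98, 3 to 143, 10 to 77, and 7 to 45, highest in each without MBD-TET1-CDwt #3 or #10. For TET1-CDwt against empty vector leaving out a clone gave 0 to 2, and for MBD-TET1-CDmut against empty vector 0 to 1. No paired analysis was possible because the clones of each construct were picked independently, and a clone number shared by 2 constructs does not link them.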
